A study of Mus musculus with 6 samples.

Results

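The genes described here are 10 members of the TGF-beta and activin pathway in the mouse forelimb autopod, the hand plate in which the digits form. They are the ligand genes Tgfb1, Tgfb2, Tgfb3, Inhba and Inhbb, the receptor genes Tgfbr1, Tgfbr2 and Tgfbr3, and the latency protein genes Ltbp1 and Ltbp3. They were taken as the non-control array probes that carry these gene names, which gave 10 of the 21245 genes that could be named on the array, read by 14 of its 55681 probes. RNA was measured in Sox9-EGFP positive mesenchymal cells (3 samples) and in Sox9-EGFP negative mesenchymal cells (3 samples), sorted from embryos at E11.5. Both groups came from the same Sox9EGFP knock-in mice on a C57BL/6 background, so cells without EGFP carry the reporter allele too. Each sample pooled about 10 autopods and was hybridised to its own 1-colour Agilent array. Nothing in the labels says that the samples came from separate litters or sorts, so p-values measure the spread between these samples. With 3 arrays per group the precision of each difference is limited.

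TGF-beta ligands are secreted bound to their own propeptide in a latent form, and latent TGF-beta binding proteins such as Ltbp1 and Ltbp3 tie this complex to the extracellular matrix until integrins or proteases release it. Activins are dimers of the inhibin beta subunits that Inhba and Inhbb encode. Released TGF-beta binds the type II receptor Tgfbr2, which activates the type I receptor Tgfbr1, and activin uses a related receptor pair. Both pathways then act through Smad2 and Smad3 with Smad4. Tgfbr3, also called betaglycan, is a co-receptor that presents ligand, TGF-beta 2 in particular. In limb mesenchyme, TGF-beta and activin are known for promoting the condensation of cells that precedes cartilage, the step that the transcription factor Sox9 marks.

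Each gene was read by 60-base oligonucleotides, 3 of which are shown because the main ligand results turn on them. Coordinates are those of mm9 in the array files, and no mm9 annotation was used to say in which part of the gene they lie. The Tgfb1 probe lies at chr7:26489877-26489936 on the plus strand and starts at base 1955 of the transcript. The brighter of the Tgfb2 probes lies at chr1:188449333-188449392 on the minus strand and starts at transcript base 2397. The Inhba probe lies at chr13:16118634-16118693 on the plus strand and starts at transcript base 1118.
Tgfb1: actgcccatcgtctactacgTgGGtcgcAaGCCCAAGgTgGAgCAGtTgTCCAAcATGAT
Tgfb2: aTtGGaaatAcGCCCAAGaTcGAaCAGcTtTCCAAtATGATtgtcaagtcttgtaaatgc
Inhba: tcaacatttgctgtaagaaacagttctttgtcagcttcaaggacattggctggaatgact
Capitals mark the bases that the Tgfb1 and Tgfb2 probes share when placed side by side without gaps. The probes overlap over 41 bases of the 2 paralogues, of which 28 (68.3%) are identical, the closest match between probes of different genes with the same role. The Tgfb1 and Tgfb3 probes were each printed in 10 spots on every array and the others in 1 spot.

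The 75th percentile of the signal was 126 on the array of positive replicate 1 and between 385 and 478 on the other 5 arrays. Every slide (3 in all) paired a positive with a negative array. All 8 limb mesenchyme markers (Prrx1, Twist1 and others) were well above background on all 6 arrays. They summed to 9324% to 9386% of the 75th percentile in positive cells and to 26090% to 26754% in negative cells. Of these markers, 5 were called lower (62.5%, beside 24.4% of all genes), Msx1 the most, at a log2 difference of −4.56. Pdgfra was called higher (0.79), and Prrx1 (−0.060) and Hoxa13 (−0.76) were not called. Sox9, the gene of the sorting reporter, was 20.7-fold and Col2a1 36.5-fold higher in positive cells. They are 2 of the 6 early cartilage markers of 8 that were called higher (75%, beside 10.6% of all genes). Sox6, also called, was above background on no negative array. Sox5 and Acan were not called, at log2 differences of 0.32 and 0.58. Markers of other cell types also moved with the groups or with 1 array, and their part in the results was not tested. The 8 muscle precursor markers summed to 15.8% to 32.8% in positive cells and to 90.1% to 238% in negative cells. On the positive arrays 0, 2 and 1 of them were well above background, so those sums include signal not above background. On each negative array 6 were. Lbx1 and Vgll2 were the brightest by their mean over all arrays, and Pax7 and Myf5 were above background on no array. The 8 ectoderm markers summed to 2246% to 3718% in positive cells and to 929% to 1167% in negative cells, with Trp63 and Krt18 the brightest and Cdh1 above background on no array. Of the 6 tested, 4 were called higher (66.7%, beside 10.6% of all genes) and 0 lower. The others did not follow the sum, with log2 differences of −0.43 for Epcam and −0.031 for Krt14, neither called. Krt5 was above background on 1 array per group and was not tested. The 8 Schwann cell and neuron markers summed to 421% to 490% in positive cells and to 322% to 341% in negative cells, with Stmn2 the brightest and Foxd3 above background on no array. The 8 blood markers summed to 141% to 476% in positive cells and to 212%, 372% and 4454% in negative cells, the last on negative replicate 2. Of these, the platelet gene Pf4 had −4.94, −6.62 and −7.00 in positive cells, on no array above background. In negative cells it had −1.49, 0.74 and −0.91, on every array above background, so it was at least 11.4-fold lower in positive cells. Of the 5 tested blood markers, 1 (Pf4) was called lower (20%, beside 24.4% of all genes) and 0 higher. Hba-a1 (log2 difference −2.44), Hbb-bt (−3.21) and Hbb-y (−1.24) were not called, nor was Fcer1g (0.11), which went the other way. In sorted bulk cells, fewer cells of a type and less RNA per cell cannot be told apart.

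Of the 10 genes, 9 could be compared, and 4 of these were higher in the Sox9-EGFP positive cells: Inhba (11.3-fold), Tgfbr3 (3.53-fold), Inhbb (2.19-fold) and Tgfb2 (1.98-fold). None passed the test as lower, while Tgfb3, Tgfbr1, Tgfbr2, Ltbp1 and Ltbp3 were not called. Tgfb1 was not well above background on all 3 arrays of either group and was not tested. The test was limma on log2 signals relative to each array's 75th percentile, with Benjamini-Hochberg adjustment over 13197 genes and a threshold of 0.05. The 4 called members are 44.4% of those tested, beside 35.0% of all genes called in either direction, 10.6% called higher and 24.4% called lower. In 6 members (66.7%) the 3 arrays of each group did not overlap, beside 51.3% of all genes. The median log2 difference was 0.60 over the 9 members and −0.18 over all genes, so zero on this scale lies above the typical gene. Of the 9 members, 8 were well above background on all 6 arrays, and Inhbb on 5. Inhba was close to the lowest such signals on the negative arrays.

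**Figure D1:**
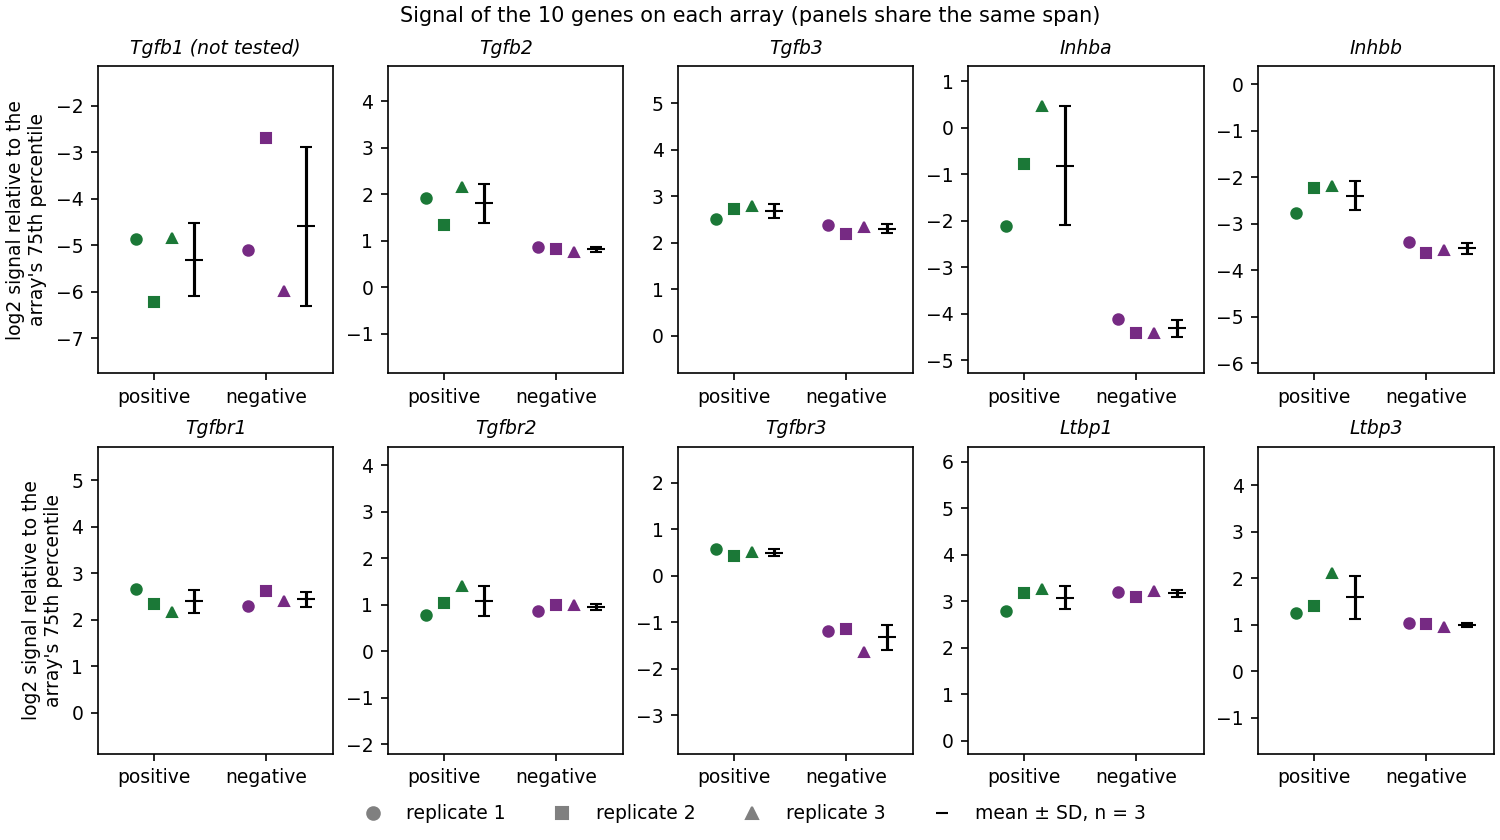
Log2 signal relative to the array's 75th percentile for each of the 10 genes, with 1 point per array (Sox9-EGFP positive on the left of each panel, negative on the right) and the mean ± SD of 3 arrays beside them. All panels span the same number of log2 units. Inhba, Inhbb, Tgfb2 and Tgfbr3 separate the groups, and Tgfb1 stands up only on negative replicate 2.

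Inhba, the gene of the activin beta A subunit, had the largest difference of the 9 members. Its log2 signal was −2.11, −0.79 and 0.46 in the positive samples, against −4.12, −4.42 and −4.41 in the negative samples. The lowest spots well above background lay at −4.53, −4.64 and −4.65 on these negative arrays, and at −2.73 on positive replicate 1. The negative Inhba values were thus close to the lowest signals told apart from background, which limits how well the size of the fold is known. The groups did not overlap, but the positive samples spread over more than 2.5 log2 units while the negative samples lay close together. The log2 difference was 3.50 ± 0.60 (SE, n = 3 per group; adjusted p = 0.00728, limma), and its 95% interval ran from 2.05 to 4.96. Before scaling, the processed signals were 29.0, 235 and 578 on the positive arrays and 25.8, 18.0 and 22.5 on the negative arrays. Positive replicate 1, the array with the low 75th percentile, thus gave a raw signal near those of the negative arrays. Without it the difference was 4.15 (adjusted p = 0.00125). Within the slides the difference was 2.31 on slide 1, which holds positive replicate 1, 3.62 on slide 2 and 4.58 on slide 3. With normexp background correction and quantile normalization it was 1.74 (adjusted p = 0.0339) and in the authors' own log2 values 1.69, so its size moved by over 1.5 log2 units between settings while the call stayed.

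Inhbb, the gene of the activin beta B subunit, was dim on every array. It had log2 signals of −2.76, −2.23 and −2.19 in positive cells and −3.39, −3.62 and −3.55 in negative cells, without overlap. The log2 difference was 1.13 ± 0.18 (SE, n = 3 per group; adjusted p = 0.00574, limma), and 0.86, 1.33 and 1.20 within the slides. On positive replicate 1 the spot was not well above background, with a processed signal of 18.6 beside 86.7 and 91.6 on the other positive arrays and 31.2 to 42.7 on the negative arrays. The call was lost after quantile normalization (0.83, adjusted p = 0.0880), after normexp and quantile normalization (0.33, adjusted p = 0.132) and in the authors' values (0.32, adjusted p = 0.137). Without positive replicate 1 it was 1.31 (adjusted p = 0.00138). Over all 18 alternatives run on Inhbb, the adjusted p ranged from 0.000487 to 0.137.

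The ratio of Inhba to Inhbb on the same array does not depend on a constant scaling of the array. Its difference between the groups was 2.37 ± 0.59 (SE) on the log2 scale, and its values did not overlap, with 0.65, 1.44 and 2.66 on the positive arrays and −0.72, −0.80 and −0.86 on the negative arrays. The exact two-sided permutation p was 0.1, the smallest that 3 against 3 arrays allow, and 0.15 after adjustment over the 6 pairs of related members compared. On positive replicate 1 the ratio divides by the Inhbb spot that was not well above background. Without that array the difference was 2.84, but after normexp it was 1.42 and in the authors' values 1.37. Inhba thus had the larger difference of the 2 subunits under these settings, at a precision that cannot pass the threshold.

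Among the TGF-beta ligands, Tgfb2 was the called gene. It had 1.92, 1.35 and 2.15 in positive cells and 0.87, 0.83 and 0.76 in negative cells. All positive samples lay above all negative samples, and the negative samples were nearly equal. The log2 difference was 0.99 ± 0.21 (SE, n = 3 per group; adjusted p = 0.0152, limma), and 1.09, 0.59 and 1.28 within the slides. Leaving out negative replicate 1 (adjusted p = 0.0516) or negative replicate 3 (0.0610) ended the call, as did fits without both arrays of slide 1 (0.0502) and with no filter on background (0.0534), in a range of 0.00598 to 0.0610 over 19 alternatives. A dimmer Tgfb2 probe that starts at transcript base 4196 gave 0.91, −0.15 and 0.77 in positive cells and −0.51, −0.34 and −0.30 in negative cells, also without overlap. When each of 26473 probes was tested on its own, of which 21.6% were called, the brighter Tgfb2 probe kept its call (adjusted p = 0.0277) and the dimmer one, with a difference of 0.89 ± 0.29 (SE), did not reach it (0.0789).

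Tgfb3 had 2.52, 2.72 and 2.80 in positive cells and 2.38, 2.19 and 2.33 in negative cells, averaged over its spots. The groups did not overlap, and the gap between them was small. The log2 difference was 0.38 ± 0.12 (SE, n = 3 per group; adjusted p = 0.0560, limma), with 0.33, 0.40 and 0.41 within the slides. It was past the threshold with slide as a block (adjusted p = 0.0406), and under each other scaling, with 0.53 after centring arrays on their median tested gene (adjusted p = 0.0128), 0.63 after quantile normalization (0.0176), 0.62 after normexp (0.00931) and 0.60 in the authors' values (0.0120). Of 19 alternatives, 10 called it, over a range of adjusted p from 0.00931 to 0.172. The Tgfb2 to Tgfb3 ratio was higher in positive cells by 0.61 ± 0.26 (SE), but its values overlapped between the groups (exact two-sided permutation p = 0.2, and 0.24 adjusted over the 6 pairs). Within the slides, which this permutation does not use, the ratio differed by 0.76, 0.19 and 0.87. After normexp the ratio's difference was 0.40 and in the authors' values 0.39.

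**Figure D2:**
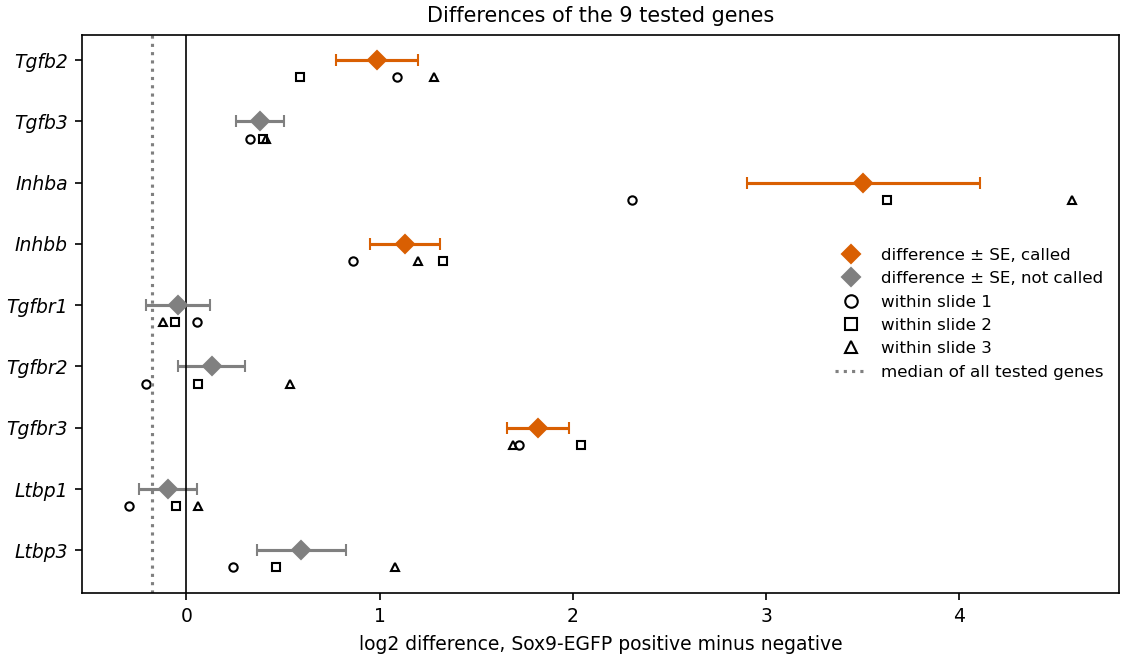
Log2 difference (Sox9-EGFP positive minus negative) with its SE for the 9 tested genes, and below each the difference within each of the 3 slides as open symbols. The dotted line is the median of all tested genes at −0.18. Tgfbr3 has close values on the 3 slides, from 1.69 to 2.04, and Inhba the widest, from 2.31 to 4.58.

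Tgfb1, a ligand made by many cell types including blood cells, differed from the rest because most of its spots were above background on a single array. Its mean log2 signal over spots not marked as outliers was −4.87, −6.21 and −4.83 in positive cells and −5.11, −2.68 and −5.97 in negative cells. On negative replicate 2 all 10 spots were well above background, with processed signals between 52.3 and 69.2. On the other 5 arrays the spots lay between 3.23 and 24.5, and only 2 of these spots, with 17.2 and 24.5 on positive replicate 3, were well above background. With no filter on background the log2 difference was −0.72 ± 0.93 (SE, n = 3 per group; adjusted p = 0.633, limma).

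Negative replicate 2 was also the array with the most signal from blood cell genes. Tyrobp, a signalling adaptor of myeloid cells, had −4.92, −6.89 and −3.42 in positive cells and −6.35, 2.08 and −6.32 in negative cells. Ptprc, the pan-leukocyte gene of CD45, stood at −2.78 there and was well above background on 1 other array, positive replicate 3 at −4.54. Embryonic globin Hbb-y, with Fcer1g the brightest of the blood markers, had 1.67, −0.88 and 0.25 in positive cells and 0.90, 4.72 and −0.87 in negative cells. Of the 8 blood markers 7 were well above background on this array, against 3 to 6 on the others. Nrros, which holds latent TGF-beta 1 on the surface of myeloid cells, had 0.19, 0.12 and 0.16 in positive cells and −0.27, 1.51 and 0.26 in negative cells, so its highest value fell on the same array. Of the 8 endothelial markers, 5 were also well above background on negative replicate 2, against 1 to 4 on the other arrays. Cdh5 was above background only there, at −3.43, while the summed endothelial signal was highest on positive replicate 1, at 806%. The part of the blood genes, the endothelial genes and Nrros in the Tgfb1 signal was not tested. Without negative replicate 2 the same 4 members were called, with Inhba at 3.45 (adjusted p = 0.0262), Inhbb at 1.08 (0.0221), Tgfb2 at 0.99 (0.0422) and Tgfbr3 at 1.91 (0.00417).

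**Figure D3:**
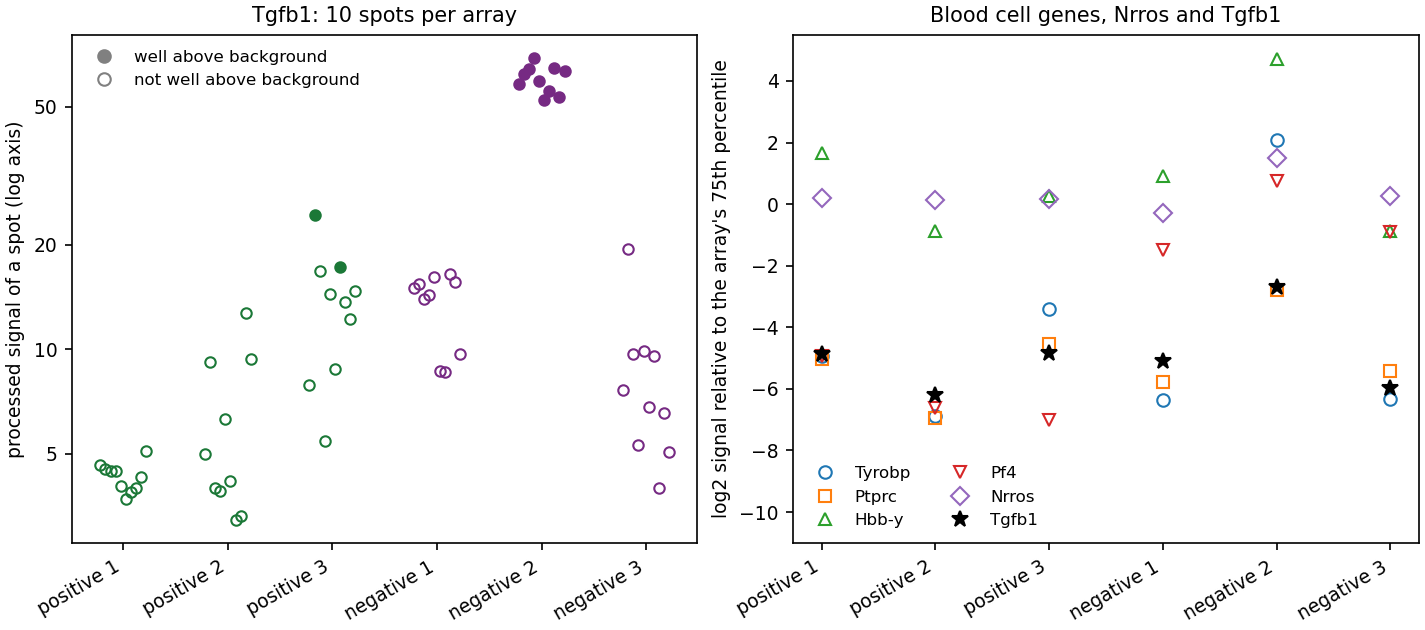
Left, processed signal of the 10 Tgfb1 spots on each array (log axis), filled where a spot was well above background. Right, log2 signal relative to the array's 75th percentile for Tgfb1, Nrros and 4 blood cell genes, with positive arrays left of negative arrays. Negative replicate 2 holds the highest value of every gene shown, with Tyrobp at 2.08 and Tgfb1 at −2.68.

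Among the receptors, Tgfbr3 changed and the signalling pair Tgfbr1 and Tgfbr2 was not called. Tgfbr3 had 0.58, 0.42 and 0.51 in positive cells and −1.19, −1.14 and −1.63 in negative cells. The 3 positive samples were close to each other and far above the negative ones. The log2 difference was 1.82 ± 0.16 (SE, n = 3 per group), and its limma adjusted p of 0.000852 was the smallest of the 9 members. Within the slides it was 1.72, 2.04 and 1.69, and it was called in all 19 alternatives, with values from 1.36 to 1.97.

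Tgfbr1 had 2.67, 2.35 and 2.17 in positive cells and 2.30, 2.62 and 2.40 in negative cells, with full overlap. The difference was −0.041 ± 0.17 (SE; adjusted p = 0.868, limma), with a 95% interval of −0.44 to 0.36. Tgfbr2 had 0.78, 1.04 and 1.41 in positive cells and 0.87, 0.99 and 0.98 in negative cells, a difference of 0.13 ± 0.18 (SE; adjusted p = 0.603) with an interval of −0.29 to 0.55. These intervals leave room for changes of either sign up to about the size of the interval bounds, and the sign of Tgfbr1 turned positive under the 4 other scalings, from 0.11 to 0.21. Dimmer probes of Tgfbr1 and Tgfbr2 gave 0.42 ± 0.33 (SE) and 0.42 ± 0.37 (SE) when tested on their own, neither called (adjusted p = 0.413 and 0.470).

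The Tgfbr3 to Tgfbr1 ratio within an array was higher in positive cells by 1.86 ± 0.20 (SE) and the Tgfbr3 to Tgfbr2 ratio by 1.69 ± 0.27 (SE). Neither overlapped between the groups, and each had an exact two-sided permutation p of 0.1, the smallest possible, and 0.15 adjusted over the 6 pairs. The Tgfbr1 to Tgfbr2 ratio differed by −0.17 ± 0.33 (SE; exact permutation p = 0.7). The co-receptor stood higher relative to both signalling receptors on all 3 slides, with within-slide differences of at least 1.15. In the authors' values these 2 differences were 1.17 and 1.11.

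The latency proteins were not called. Ltbp1 had 2.79, 3.18 and 3.26 in positive cells and 3.20, 3.09 and 3.23 in negative cells, overlapping throughout. Its difference was −0.10 ± 0.15 (SE; adjusted p = 0.662, limma) with a 95% interval of −0.46 to 0.27, and its sign turned positive under the 4 other scalings, from 0.054 to 0.19. Ltbp3 had 1.25, 1.40 and 2.11 in positive cells and 1.03, 1.01 and 0.94 in negative cells. The groups did not overlap, but positive replicate 3 stood apart at the top. The difference was 0.60 ± 0.23 (SE; adjusted p = 0.0915), and 0.24, 0.46 and 1.08 within the slides, and it was called in 2 of 19 alternatives, among them the one without positive replicate 1 (0.76, adjusted p = 0.0374). Without positive replicate 3 it was 0.33 (adjusted p = 0.113). A second Ltbp3 probe gave 1.15, 1.09 and 1.72 in positive cells and 0.83, 0.76 and 0.75 in negative cells, with the same order of groups. The Ltbp1 to Ltbp3 ratio was lower in positive cells by −0.69 ± 0.19 (SE), without overlap (exact two-sided permutation p = 0.1, 0.15 adjusted over the 6 pairs).

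**Figure D4:**
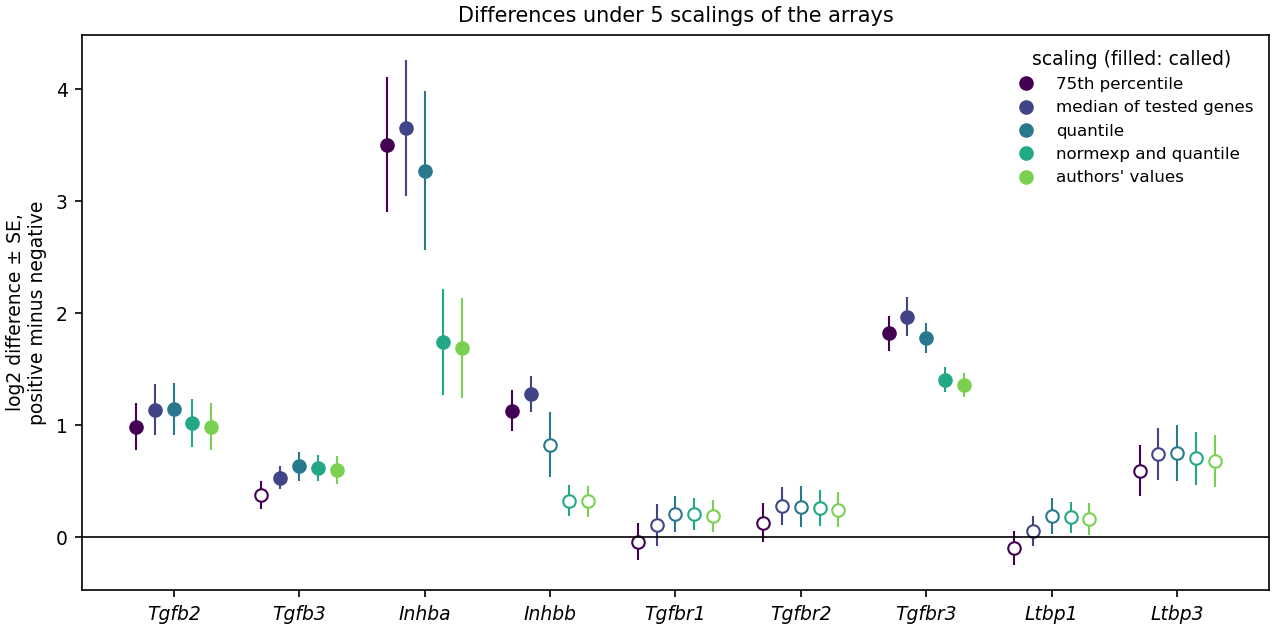
Log2 difference ± SE (Sox9-EGFP positive minus negative) of the 9 tested genes under 5 ways of scaling the arrays, filled where limma called the gene. Tgfbr3, Tgfb2 and Inhba are filled under all 5, Inhbb under 2 and Tgfb3 under 4, and Tgfbr1 and Ltbp1 lie below zero only under the 75th percentile scaling.

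The spread between replicates was larger in positive than in negative cells for 8 of the 9 members, the exception being Tgfbr3, and for 63.6% of all genes. Inhba had an SD of 1.29 over the positive samples and 0.17 over the negative samples. Of all tested genes 98.7% had a smaller SD than Inhba in positive cells, where the median SD was 0.20.

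The genes nearest to Tgfbr3 in their mean-centred profile over the 6 arrays were Bmf, Crip2 and Ddx58, at root mean square distances of 0.11 log2 units each. Their log2 differences were 1.77, 1.88 and 1.63. Nearest to Inhbb were Slc38a6 and Kcnmb4, at 0.07 each, and Fbxl16 at 0.09, with log2 differences of 1.08, 1.14 and 0.996. These profiles mostly follow the split between the groups.

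Sequences before the gene start were taken for members from RefSeq (GRCm38.p6), where 8 of the 10 genes matched, all but Tgfb3 and Tgfbr3. The 250 bases before the start are shown for Tgfb2 (chr1:186705990-186706239, minus strand) and Inhba (chr13:16011601-16011850, plus strand). Both genes were called higher in positive cells, and both windows hold the letters TATAAA, as do 12.4% of all windows.
Tgfb2: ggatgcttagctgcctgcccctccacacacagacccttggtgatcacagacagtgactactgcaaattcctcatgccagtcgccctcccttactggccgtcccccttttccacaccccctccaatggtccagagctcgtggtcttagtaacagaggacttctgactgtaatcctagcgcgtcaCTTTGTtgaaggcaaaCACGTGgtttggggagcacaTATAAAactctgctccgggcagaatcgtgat
Inhba: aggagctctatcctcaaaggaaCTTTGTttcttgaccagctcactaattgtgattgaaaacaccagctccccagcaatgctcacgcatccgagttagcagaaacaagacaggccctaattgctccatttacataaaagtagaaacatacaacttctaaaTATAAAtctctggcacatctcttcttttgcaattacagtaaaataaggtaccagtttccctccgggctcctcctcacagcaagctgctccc
Capitals mark matches, on either strand, to the TATA box TATAAA, the E-box CACGTG and the core ACAANG bound by SOX proteins. The searches also covered the CRE TGACGTCA, the AP-1 site TGANTCA and the Smad palindrome GTCTAGAC, and the marked matches do not overlap. In Tgfb2 the TATAAA match starts 31 bases, the E-box 51 bases and the SOX core 67 bases before the gene start. In Inhba the TATAAA match starts 91 bases and the SOX core 228 bases before it, so the TATAAA matches lie at different distances in the 2 genes. The Inhbb window held none of the 6 motifs. Of 32851 windows of the same length, 12.4% held TATAAA, 6.02% CACGTG, 36.3% ACAANG, 1.55% the CRE, 6.75% the AP-1 site and 0.167% the Smad palindrome. Of the 10 windows of members, 6 held the SOX core, in Inhba, Tgfb2, both Tgfbr1 windows and both Ltbp1 windows, and Tgfbr1 and Ltbp1 were not called. One of the Ltbp1 windows also held the CRE. A match of letters is a description and shows no binding.

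The wider pathway was described with 5 lists of other genes, 76 in all, of which 63 were tested. In these, 15 (23.8%) were higher and 11 (17.5%) lower in positive cells, beside 10.6% and 24.4% of all genes, and 37 were not called. Their median log2 difference was −0.048, beside −0.18 for all genes. Of the 26 called genes, 14 kept their call and 0 changed sign over up to 18 alternative scalings, filters, fits and omissions at the threshold of 0.05.

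Among 12 other ligands and soluble inhibitors, 6 were tested, and Fst was the called member. It was lower, so 16.7% of those tested were lower and 0 higher, beside 24.4% and 10.6% of all genes. Fst encodes follistatin, which binds and neutralises activin. It had −3.96, −3.61 and −3.37 in positive cells and −1.70, −1.51 and −3.21 in negative cells. The groups did not overlap, but negative replicate 3 lay next to the positive samples, and positive replicate 1 was not above background. The difference was −1.50 ± 0.46 (SE; adjusted p = 0.0459, limma), and the call was lost in 9 of 17 alternatives, with an adjusted p of up to 0.155, among them each omission of an array except negative replicate 3. It was −0.82 after normexp and −0.80 in the authors' values. Inha, the inhibin alpha subunit, had −1.46, −0.74 and −0.54 in positive cells and −1.61, −1.54 and −1.84 in negative cells and was not called (0.75 ± 0.25 SE, adjusted p = 0.0591).

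Among 12 other receptors and co-receptors, 9 were tested, with 3 (33.3%) higher and 1 (11.1%) lower, beside 10.6% and 24.4% of all genes. The higher genes were Igsf1, a membrane protein of the immunoglobulin superfamily (1.97 ± 0.18 SE, adjusted p = 0.000970), the type I receptor Acvrl1 (1.80 ± 0.23, adjusted p = 0.00273) and the co-receptor endoglin, Eng (1.04 ± 0.18, adjusted p = 0.00806). These 3 dim genes differed less after normexp, with Igsf1 at 0.70, Acvrl1 at 1.10 and Eng at 0.35, and in the authors' values, with 0.69, 1.05 and 0.34. Eng lost its call in both (adjusted p = 0.0505 and 0.0570). Acvrl1 and Eng are also known from endothelium. The 8 endothelial markers summed to 294% to 806% of the 75th percentile in positive cells and 197% to 508% in negative cells, 2 of them (Kdr and Pecam1 were the brightest of the list) were tested with 0 called, and Tek, Tie1 and Emcn were above background on no array. Nrp1, a co-receptor of several ligands, was lower (−0.70 ± 0.13 SE, adjusted p = 0.00979). The activin receptors were not called, with Acvr1b at −0.16 ± 0.12, Acvr2a at −0.10 ± 0.10 and Acvr2b at −0.13 ± 0.16 (SE).

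Of 18 genes of latency and activation, 16 were tested, with a median of 0.31. Of these, 5 (31.25%) were higher and 2 (12.5%) lower, beside 10.6% and 24.4% of all genes. Ltbp4, a further latent TGF-beta binding protein, had 2.39, 2.39 and 2.62 in positive cells and 1.21, 1.09 and 0.96 in negative cells. Its groups were far apart, differing by 1.38 ± 0.13 (SE; adjusted p = 0.000979, limma), called in all 18 alternatives. Decorin, Dcn, a proteoglycan that binds TGF-beta, was higher by 1.84 ± 0.20 (SE) and fibrillin-1, Fbn1, to which latent complexes attach, by 1.26 ± 0.25, although Fbn1 lost its call without negative replicate 3 (adjusted p = 0.0507). The integrin subunits Itgav (0.56 ± 0.16) and Itgb5 (0.43 ± 0.11) were higher and Itgb3 (−1.75 ± 0.23) was lower, and integrins with the alpha v chain release latent TGF-beta. The Itgav and Itgb5 calls were each lost in 6 of 18 alternatives, with an adjusted p of up to 0.104 and 0.117. After normexp Itgb3 was at −0.65 and Itgb5 at 0.76, both called. Itgb3 encodes an integrin chain also known from platelets, and the platelet gene Pf4 given above was lower in positive cells too, whose part in this result was not tested. Mmp2, a gelatinase that can release TGF-beta, was lower (−1.42 ± 0.15). Ltbp2 had 0.40 ± 0.32 (SE; adjusted p = 0.379) and was not called.

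All 15 Smads and intracellular regulators were tested and 0 were called by limma at the adjusted threshold, beside 35.0% of all genes. Smad2 had a difference of −0.25 ± 0.14 (SE; adjusted p = 0.208), Smad3 −0.29 ± 0.11 (0.0779) and Smad4 −0.13 ± 0.14 (0.506). Smad7, the inhibitory Smad that the pathway induces, had 0.07, −2.05 and −2.39 in positive cells and −1.43, 0.53 and −1.42 in negative cells. Its highest values in both groups were on slide 1, and its difference was −0.69 ± 0.81 (SE; adjusted p = 0.550).

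Of 22 genes commonly induced by TGF-beta, 20 were tested, with 7 (35.0%) higher and 7 (35.0%) lower, beside 10.6% and 24.4% of all genes. The higher genes include periostin, Postn, a matricellular protein that was at least 4.27-fold higher because no negative array was well above background. Its limma adjusted p of 5.70e-05 rests on negative values below background, and its log2 difference was 0.95 after normexp and 0.96 in the authors' values, against a fitted 4.17. Connective tissue growth factor, Ccn2, was higher by 2.59 ± 0.32 (SE), the tendon factor Scx by 1.34 ± 0.17, Tgfbi by 1.27 ± 0.16, the actin-binding Tagln by 1.26 ± 0.15 and collagen I, Col1a1, by 1.06 ± 0.20. On the lower side, smooth muscle actin, Acta2, was at least 8.0-fold lower, since no positive array was well above background. Its limma adjusted p of 0.00319 rests on such positive values, and its log2 difference was −1.77 after normexp, against a fitted −3.89. The muscle precursor markers given above were also lower in positive cells, and their part in the Acta2 result was not tested. The cell cycle inhibitor Cdkn1a (−2.04 ± 0.28 SE), collagen III, Col3a1 (−2.13 ± 0.50), the transcription factors Snai1 (−0.61 ± 0.11) and Snai2 (−0.62 ± 0.11), and fibronectin, Fn1 (−0.60 ± 0.13), were lower as well. After normexp Cdkn1a was at −0.87, Snai1 at −0.32, Snai2 at −0.31 and Fn1 at −0.26. The call of Col3a1 was lost in 6 of 18 alternatives, including each omission of an array except positive replicate 1 (adjusted p = 0.0549 to 0.0715). Snai1 lost its call in 3 of 18 and Snai2 in 4 of 18, both after normexp and after quantile normalization among them (largest adjusted p = 0.0749 and 0.107), and Fn1 in 8 of 18 (largest 0.192).

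**Figure D5:**
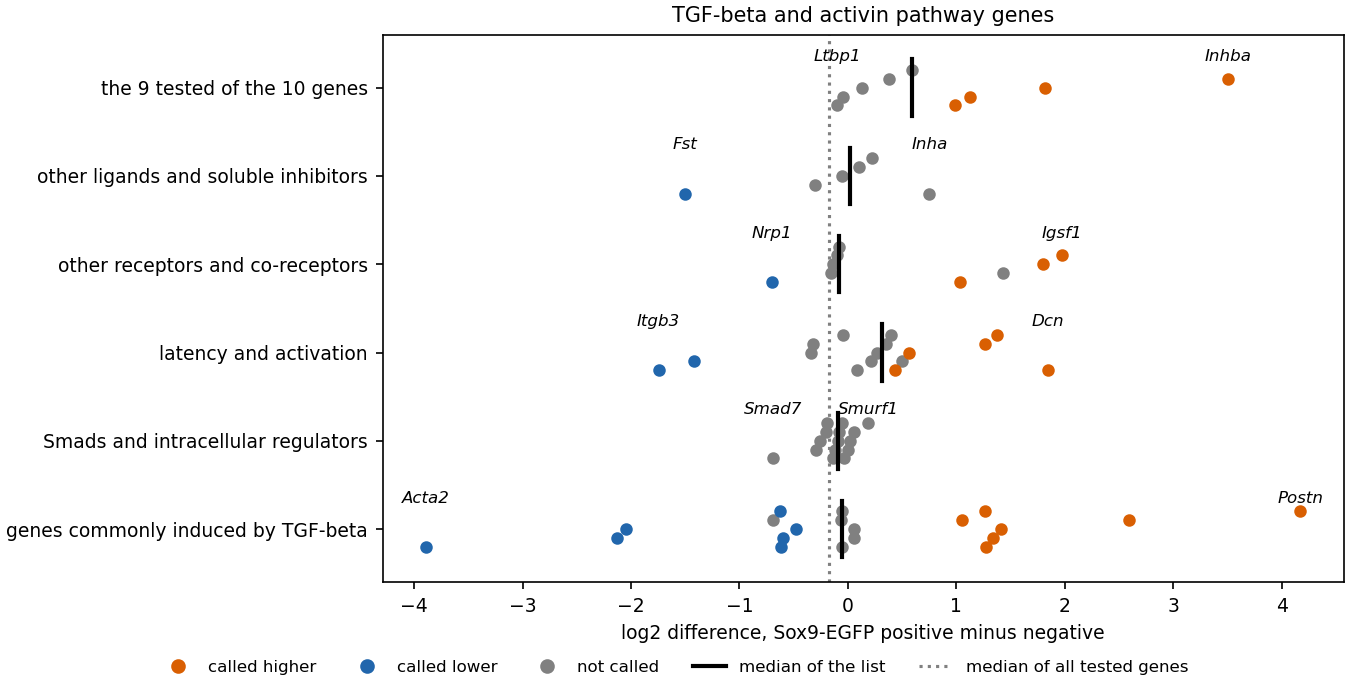
Log2 difference (Sox9-EGFP positive minus negative) of each tested gene, for the 9 tested members and 5 lists of other pathway genes, coloured by the limma call, with a bar at the median of each list and a dotted line at the median of all genes (−0.18). Inhba marks the right end of the members at 3.50. The Smads and intracellular regulators hold 0 called genes, beside 35.0% called of all genes. Postn and Acta2 are drawn at fitted values that rest on signals not above background in 1 group.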

How the data were processed

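RNA of 6 samples, 3 of Sox9-EGFP positive and 3 of Sox9-EGFP negative cells, was measured on 1-colour Agilent arrays. Per the file headers, the authors made the intensity values with Feature Extraction 10.7.3.1, which corrects background and spatial trends within an array. The deposited series matrix holds log2 values whose columns share 1 distribution. The sources used here do not give the step behind them.

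From the log2 of each processed intensity, the array's 75th percentile over 59305 non-control spots was subtracted. Spots marked as outliers were left out and spots of a probe averaged. Tested probes had most of their spots well above background on all 3 arrays of a group. Probes were named through RefSeq (GRCm38.p6) by accession (26300), symbol (2044) or unique older symbol (355). The brightest kept probe stood for a gene. Groups were compared with limma 3.58.1 (R 4.3.3) over 13197 genes, and ratios within arrays by exact permutation. The pipeline was tested on simulated data.

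Members and gene lists were chosen with earlier results of these data known. Text names every member, up to 6 called genes per list and direction, Smads 2 to 4, activin receptors, Fst, Ltbp2, Ltbp4, and the 3 nearest profiles of 2 members. Inha, Smad7, Tyrobp, Ptprc, Pf4, Nrros and Lrrc32 were chosen after their values were seen. Values of some single list genes are not reported here. Alternatives were other scalings, filters, probe summaries, moderation, weights, blocks by slide or replicate number, and omission of arrays. Leaving out both arrays of slide 1 was chosen after seeing the data.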

Additional observations from a re-analysis of the deposited data

How the results depend on the processing

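The number of genes called (4617) became 2656 with no filter on background, 2157 with the replicate block, 2109 at a threshold of 0.01, and 2485 to 5176 when 1 array was left out, lowest without negative replicate 3. It was 2542 without negative replicate 1 and 2911 without positive replicate 3. Members called ranged from 3 to 6 over all alternatives. Pathway genes called (26) became 17 at a threshold of 0.01 and 20 to 26 when 1 array was left out. The median of all genes was −0.18 and 69.7% of called genes were lower, beside −0.03 and 54.7% after centring arrays on their median tested gene. That share was 53.7% after quantile normalization, 53.7% after normexp and 55.4% in the authors' values. Tgfbr1 (−0.041) turned positive after normexp (0.20), quantile normalization (0.21), median centring (0.11), in the authors' values (0.19) and with the mean of its probes (0.19), and ranged from −0.18 to 0.070 when 1 array was left out. Ltbp1 (−0.10) turned positive after normexp (0.18), quantile normalization (0.19), median centring (0.054), in the authors' values (0.16) and without both arrays of slide 1 (0.0031), and ranged from −0.19 to 0.045 when 1 array was left out. Tgfbr2 ranged from −0.035, without positive replicate 3, to 0.28, and its ratio with Tgfbr1 from −0.46 to 0.11. The cause of these changes was not tested. With the replicate block the 4 called members kept their calls (largest adjusted p = 0.0463, Tgfb2), and 18 pathway genes were called, without Nrp1 (0.0520), Snai1 (0.0529) and Snai2 (0.0522) among others. In a check of pairing, same-numbered positive and negative arrays had correlations of −0.27, −0.42 and 0.16, beside 0.46, 0.36 and 0.23 for arrays of the same slide. These values do not measure how alike the whole arrays were. The compared pairs reuse the same arrays, and no same-numbered pair shared a slide. The values therefore cannot decide whether the replicate numbers pair the samples. Signal over background limits Tgfb1, Inhbb, Fst and the size of the Inhba difference.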

Other observations

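Lrrc32, which like Nrros holds latent TGF-beta 1 on cell surfaces, had −2.43, −2.15 and −1.63 in positive cells and −2.61, −2.15 and −2.94 in negative cells and was not called. The Tgfbr1 locus had 1 further probe, named by an Ensembl transcript and outside the members. It had −4.49, −3.83 and −4.22 in positive cells and −4.57, −4.68 and −5.13 in negative cells, was well above background on 2 of 6 arrays and was not tested.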
